A study of Mus musculus with 24 samples.

Results

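The hippocampus of old mice lacking apolipoprotein D (ApoD-KO, KO below) was compared with that of young KO mice on 6 of the 24 arrays of the series, the 3 titled as old KO hippocampus and the 3 titled as young KO hippocampus. The series as a whole asks whether the absence of ApoD alters ageing of gene expression differently in cerebral cortex and in hippocampus. All mice were C57BL/6J males, aged 100 days (young) or 655 days (old), and the only genetic difference given in the labels is wild type (WT) against ApoD-KO. Both groups of this comparison lack ApoD, so it describes age in the absence of ApoD and not the effect of the loss. Each array carried pooled RNA of 2 to 3 mice, so the spread between arrays is a spread between pools, and the labels do not say how the KO allele was made. The comparison was set beside 6 arrays of old and young WT hippocampus and 6 of old and young KO cortex.

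ApoD is a secreted lipocalin, a small carrier protein with a pocket for fatty acids and other lipids, and in the brain it is made mainly by glia and by cells around blood vessels. It rises with age in mammalian brain and limits lipid peroxidation. The hippocampus holds the dentate gyrus and the CA fields, is needed for spatial and episodic memory, and is a region in which ageing rodents are known to gain glial and immune transcripts.

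The deposited table lists Ensembl gene IDs with no gene names. The reference table used here, of RefSeq genes on GRCm38.p6, lists 0 Ensembl IDs and matched 0 of the 23879. No gene, pathway or cell type could therefore be named, the hippocampal identity of the samples was not checked by markers, and the results are given by ID and by counts of IDs. In bulk tissue, fewer cells of a type and less RNA per cell cannot be told apart.

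The targeted gene could not be looked up by name, so the KO labels were not checked. The ID whose mean signal in KO lay furthest below that in WT over the 24 arrays was ENSMUSG00000022548. Its separation of the genotypes is a description, fixed by that choice. Its signal was 8.10, 7.88 and 8.07 log2 on the young KO hippocampus arrays and 8.29, 8.21 and 8.24 on the old ones. On the WT hippocampus arrays it was 11.87, 11.69 and 11.76 when young and 12.55, 12.25 and 12.66 when old. All 6 KO arrays lay far below all 6 WT arrays, and the old and young arrays did not overlap in either genotype. Its change with age was 0.24 log2 in KO (SE 0.088, limma adjusted p = 0.121), not past the threshold, where the WT change was 0.71 (limma adjusted p = 1.2e-04). The difference, KO minus WT, was -0.47 log2 (95% interval -0.73 to -0.21, limma adjusted p = 0.999 over all IDs). That interval is not adjusted for the number of IDs. The KO change is also that of the low signal for which the ID was chosen, so no difference in ageing is read from it.

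Before the results, 1 of the 6 arrays has to be set apart. Replicate 1 of the young KO group had the lowest median signal of the 24 arrays, 7.31 log2, where the second lowest was 7.34. It differed from young replicates 2 and 3 by a root mean square of 0.267 and 0.241 log2 over the 14327 IDs tested. Those other two differed from each other by 0.163, and the pairs of old KO arrays by 0.137 to 0.170. In the 6 pairs of WT hippocampus arrays of the same age the difference was 0.124 to 0.150. Replicate 1 was the lowest of the 3 young KO arrays for 64.7% of IDs, and its median deviation from the mean of the other pair was -0.11 log2. The deviation was also wide in both directions, since 189 IDs were more than 0.5 log2 higher and 240 more than 0.5 log2 lower than in the other pair. The part of this array in the age comparison is described by giving each result with and without it.

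With all arrays, 771 of the 14327 IDs, 5.38% of them, differed between old and young KO hippocampus (limma, Benjamini-Hochberg adjusted p under 0.05; such IDs are called, and "rose" and "fell" refer to them). Of these, 592 rose in old mice and 179 fell, which is 4.13% and 1.25% of the IDs tested. The rises were mostly small, with a median of 0.32 log2 and a range of 0.16 to 1.45, and 73 of them passed 0.5 log2 and 9 passed 1 log2. The falls had a median of -0.26 log2, and only 3 passed 0.5 log2 in size. The old and young arrays did not overlap for 577 of the rises and 173 of the falls, where over all IDs tested 20.3% did not overlap, the 3 old arrays lying entirely above the 3 young ones in 13.6% and entirely below in 6.67%.

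Without young KO replicate 1 the balance of rises and falls turned over. Then 239 IDs rose and 281 fell, 520 in all or 3.63% of the IDs tested, and rises and falls were 1.67% and 1.96%. The median change over all tested IDs was 0.026 log2 with the array and -0.0021 without it, and the share of IDs with a positive change went from 58.7% to 49.2%. Of the 592 rises, 225 (38.0%) were called again without the array, and of the 179 falls, 126 (70.4%), which are 1.57% and 0.879% of the IDs tested. Only 14 rises but 155 falls were called without the array alone. The number of IDs called as rising in one fit and falling in the other was 0.

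**Figure D1:**
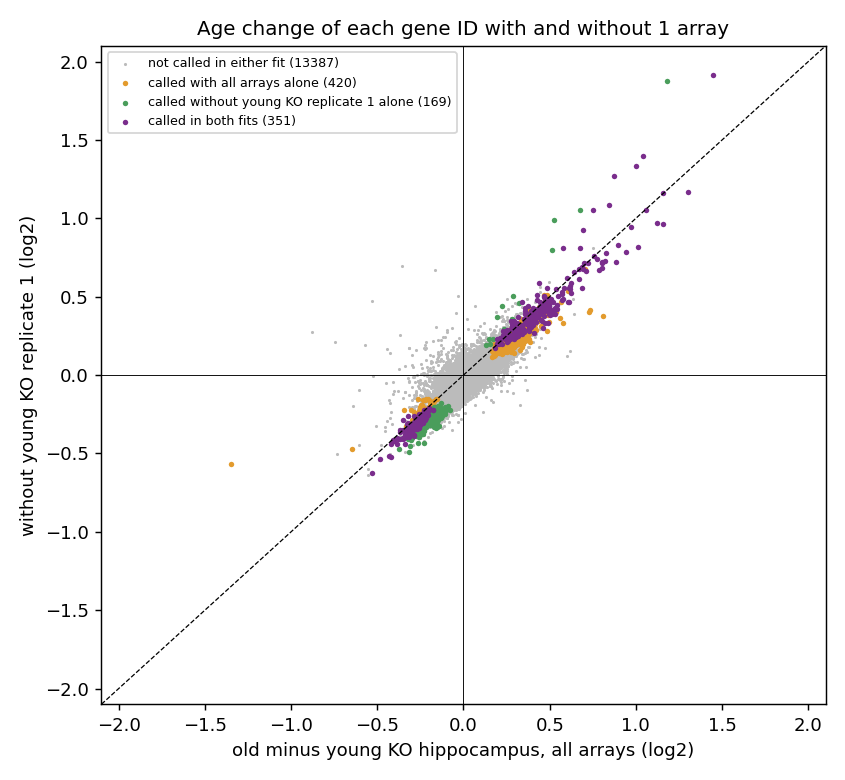
Change with age of each of 14327 gene IDs in KO hippocampus, old minus young in log2, with all arrays (horizontal axis) and without young KO replicate 1 (vertical axis), one point per ID, coloured by the fit in which it was called, with the diagonal dashed. The 351 IDs called in both fits lie along the diagonal in both directions, while the 420 called with all arrays alone are mostly rises of under 0.5 log2.

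Most rises called with all arrays alone were IDs on which replicate 1 was the lowest young array. It was the lowest of the 3 for 311 of the 367 rises called with all arrays alone (84.7%) and for 137 of the 225 called in both fits (60.9%), beside 64.7% of all tested IDs. The first share is partly built in, because these calls were picked for being lost without that array. The 367 had a median change of 0.28 log2 with all arrays and 0.23 without replicate 1, so the size shrank modestly while the call was lost. The 225 had a median of 0.42 log2 and 0.39. Most of the larger rises were called with and without this array: 64 of the 73 rises over 0.5 log2 and 9 of the 9 over 1 log2 were called in both fits.

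Direction also depended on how the arrays were scaled. After centring each array on its median 334 rose and 388 fell, and after quantile normalization 498 rose and 413 fell. With both median centring and replicate 1 left out, 183 rose and 328 fell. The numbers of rises and falls in KO hippocampus are therefore given here with no statement on which direction was the more common.

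A second array mattered for the number of calls. Without old KO replicate 1, 242 IDs rose and 29 fell. That array was the lowest of the 3 old arrays for 131 of the 179 falls (73.2%), where over all tested IDs it was the lowest in 40.4%. Without old replicate 2 the counts were 334 and 105, without old replicate 3 they were 370 and 115, without young replicate 2 they were 776 and 123, and without young replicate 3 they were 608 and 139. In the fit to the 6 KO hippocampus arrays alone, where the other groups add nothing to the estimate of spread, 10 IDs rose and 0 fell, and 1855 IDs had an unadjusted p under 0.05. The median SE of a change was 0.0833 log2 in that fit and 0.0746 in the fit to all arrays. The median SD of an ID between arrays was 0.109 log2 in young KO and 0.0765 in old KO hippocampus, against 0.0604 in young WT and 0.0667 in old WT hippocampus, so the spread shared over all groups is smaller than that of the young KO arrays.

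**Figure D2:**
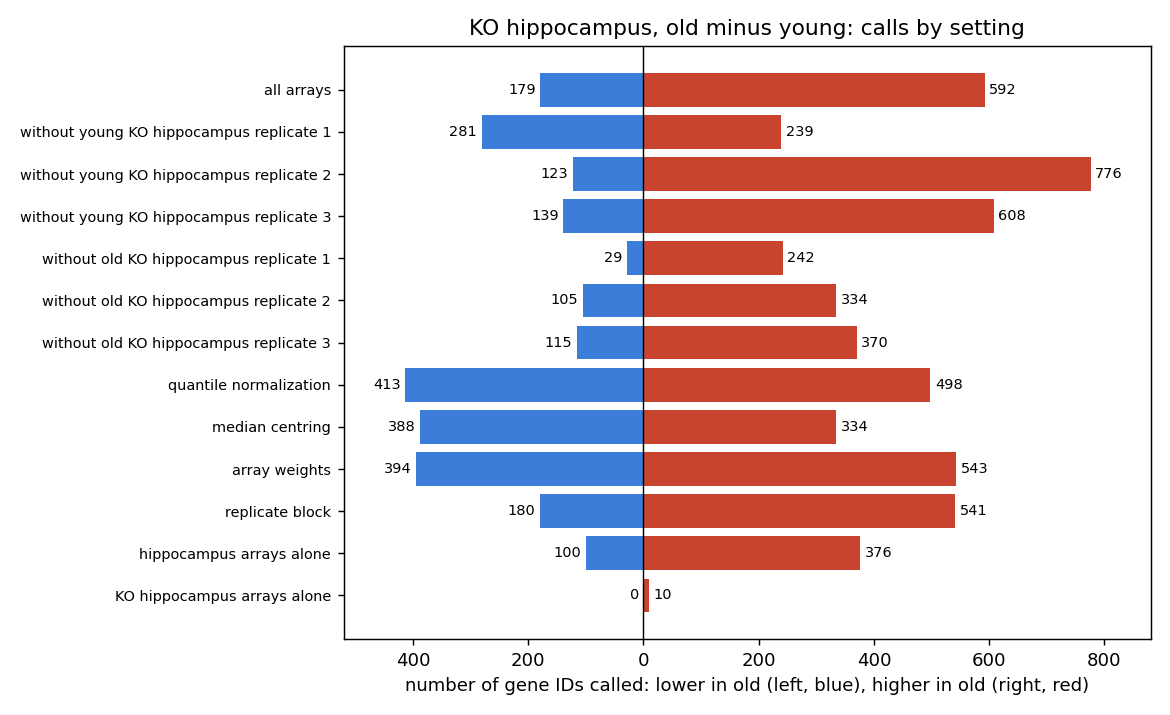
Number of gene IDs called in old minus young KO hippocampus under each setting, with rises to the right in red and falls to the left in blue. The bars for all arrays hold 592 rises and 179 falls, those without young KO replicate 1 hold 239 and 281, and those for the 6 KO hippocampus arrays alone hold 10 and 0.

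A core of IDs was called with all arrays and again in each of the 6 fits that left out 1 KO hippocampus array. It held 157 rises (1.10% of the IDs tested) and 24 falls (0.168%). The 157 rises had a median of 0.46 log2 and the 24 falls a median of -0.35 log2 with all arrays. The 10 IDs called from the 6 KO hippocampus arrays alone were all in this core, with rises of 0.64 to 1.30 log2. Both sets rest on the same KO arrays, so this overlap is a description. All 10 were also called as rising in WT hippocampus, where 3.78% of all tested IDs were.

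By the rule for named genes, which took IDs called in the same direction with and without young KO replicate 1 and whose old and young arrays did not overlap, 221 rises and 124 falls were eligible. The 12 largest of these rises ran from 0.89 to 1.45 log2, and the 12 largest falls from -0.37 to -0.53 log2. The largest fall with all arrays, of size 1.35 log2, was not eligible, because it was not called without young KO replicate 1. Median changes in these sets of 12 were 1.05 log2 for the rises and -0.41 for the falls, and 1.01 and -0.43 without replicate 1. Both sets were picked by size from these same arrays, with and without replicate 1. Their sizes are therefore inflated, and the 2 directions are not compared on them. Because no table gives their names, 2 IDs are described in each direction.

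ENSMUSG00000064365 had the largest rise with all arrays. Its signal was 11.41, 9.79 and 10.25 log2 on the young KO arrays and 12.24, 11.85 and 11.71 on the old ones. The groups did not overlap, but young replicate 1 lay closer to the old arrays than to its own group. The rise was 1.45 log2 (SE 0.26, 2.73-fold, limma adjusted p = 2.9e-03, n = 3 each), and 1.91 log2 (3.76-fold, limma adjusted p = 8.0e-06) without that replicate. In WT hippocampus it rose by 1.19 log2 (limma adjusted p = 0.012), and in KO cortex its change was 0.14 log2 (limma adjusted p = 0.855). The call in KO hippocampus was lost in the fit to the 6 KO arrays alone (limma adjusted p = 0.184).

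ENSMUSG00000073418 had the smallest p-value of the comparison. Its signal was 7.33, 7.70 and 7.79 log2 when young and 8.85, 9.05 and 8.84 when old. All old arrays lay more than 1 log2 above all young arrays, and young replicate 1 was the lowest. The rise was 1.30 log2 (SE 0.10, 2.47-fold, limma adjusted p = 2.3e-07, n = 3 each) and 1.17 log2 without young replicate 1 (limma adjusted p = 5.2e-07). It rose by 1.33 log2 in WT hippocampus and by 0.95 log2 in KO cortex (limma adjusted p = 1.5e-07 and 3.5e-05). The call held under all the alternatives tried for it, with a limma adjusted p of at most 0.0217.

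ENSMUSG00000021760 had the largest fall of the eligible IDs. Its signal was 7.63, 7.92 and 7.89 log2 on the young KO arrays and 7.56, 7.08 and 7.20 on the old ones. The gap between the groups was narrow, with young replicate 1 the lowest young array and old replicate 1 the highest old array. The ID fell by 0.53 log2 (SE 0.096, 1.45-fold, limma adjusted p = 3.1e-03, n = 3 each) and by 0.62 log2 without young replicate 1 (limma adjusted p = 2.0e-03). In WT hippocampus it fell by 0.71 log2 with limma adjusted p = 3.2e-04, and in KO cortex its change of -0.36 log2 was not past the threshold (limma adjusted p = 0.0567).

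ENSMUSG00000031210 was next among the eligible falls. Its signal was 8.73, 8.85 and 8.91 log2 when young and 8.29, 8.43 and 8.31 when old. The groups were well apart, and each varied by less than 0.2 log2. It fell by 0.49 log2 (SE 0.084, 1.40-fold, limma adjusted p = 2.1e-03, n = 3 each), and by 0.54 log2 without young replicate 1 (limma adjusted p = 3.6e-03). Its change was -0.27 log2 in WT hippocampus (limma adjusted p = 0.0674) and -0.04 log2 in KO cortex (limma adjusted p = 0.874), neither past the threshold. The difference of its age change between KO and WT hippocampus was -0.22 log2 (95% interval -0.46 to 0.03), so the call in 1 genotype does not show that the genotypes differ. Both falls lost their call in the fit to the 6 KO arrays alone, at limma adjusted p = 0.186 and 0.0725.

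**Figure D3:**
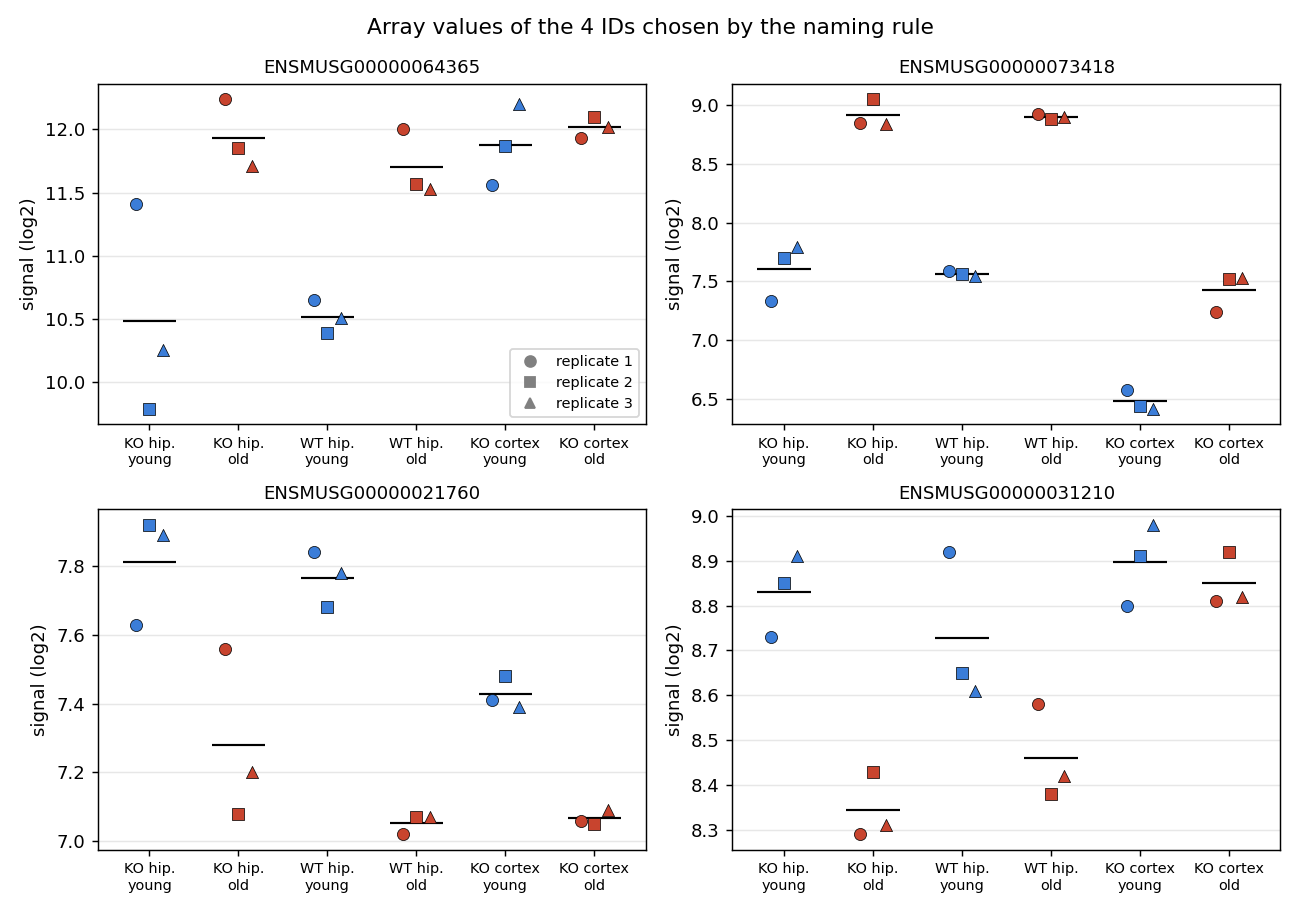
Signal (log2) of the 4 IDs on each array of KO hippocampus, WT hippocampus and KO cortex, young in blue and old in red, with replicates as circles (1), squares (2) and triangles (3) and group means as bars. ENSMUSG00000073418 is higher in old than in young mice in all 3 pairs of groups, while ENSMUSG00000064365 shows a wide young KO group, from 9.79 to 11.41.

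The change with age in KO hippocampus was then set beside that in WT hippocampus, which shares no array with it, although all 24 arrays entered the filter and each ID's estimate of spread. Of the 592 rises in KO, 575 (97.1%) also had a positive change in WT, where 53.5% of all tested IDs did. Of the 179 falls, 176 (98.3%) had a negative change in WT, where 46.5% of all tested IDs did. The agreement in sign extended to the calls that depended on young KO replicate 1: 352 of the 367 rises called with all arrays alone (95.9%) were positive in WT, and 146 of the 155 falls called without that replicate alone (94.2%) were negative. In WT 714 IDs were called (4.98% of those tested), of which 541 rose and 173 fell (3.78% and 1.21%). Among the KO rises 263 (44.4%) rose in WT too, which is 48.6% of the WT rises, and among the KO falls 54 (30.2%) fell in WT, 31.2% of the WT falls. In the core the shares of calls shared with WT were 112 of 157 rises (71.3%) and 14 of 24 falls (58.3%).

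Sizes are inflated in the genotype that picked the IDs, so they were read in both directions. The KO rises had a median of 0.32 log2 in KO and 0.24 in WT, and the WT rises a median of 0.32 log2 in WT and 0.25 in KO. The KO falls had a median of -0.26 log2 in KO and -0.18 in WT, and the WT falls -0.26 log2 in WT and -0.17 in KO. Each genotype thus showed about the same size of change for IDs chosen in the other. Without young KO replicate 1 the WT rises had a median of 0.21 log2 in KO and the WT falls -0.20 log2.

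**Figure D4:**
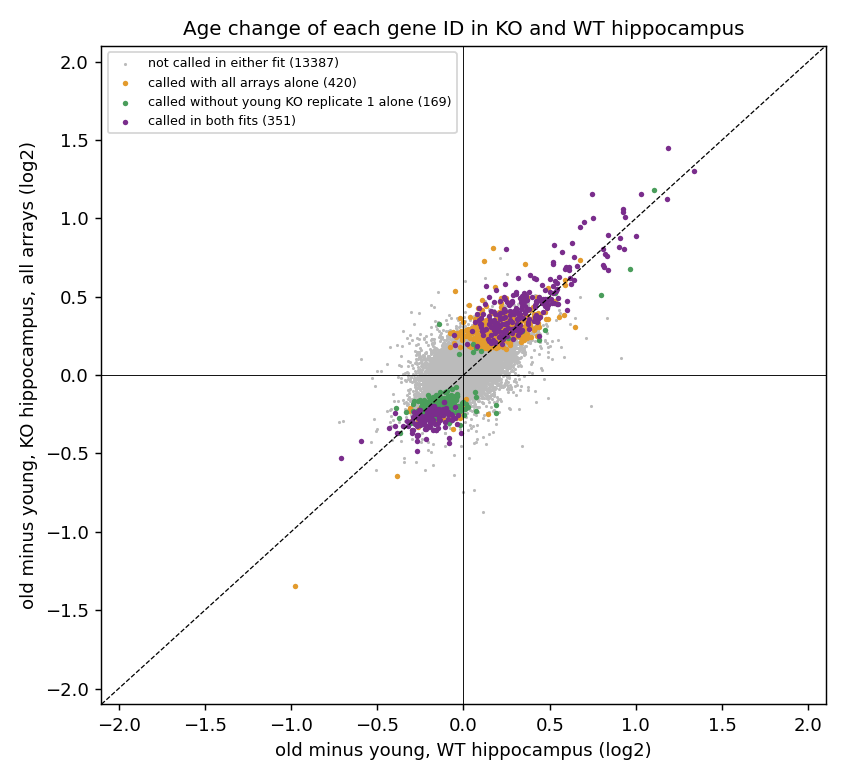
Change with age of each of 14327 gene IDs in WT hippocampus (horizontal axis) and KO hippocampus with all arrays (vertical axis), old minus young in log2, coloured by the KO fits in which the ID was called, with the diagonal dashed. Nearly all called IDs lie in the quadrants of equal sign, 575 of 592 KO rises and 176 of 179 KO falls.

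The difference itself, the age change in KO minus that in WT hippocampus, was tested for each ID and none was called, a count of 0 (0% of the IDs tested) with limma, also without young KO replicate 1. The smallest limma adjusted p was 0.999 with all arrays and 0.364 without that replicate. IDs with an unadjusted p under 0.05 numbered 581 (4.06%) with all arrays and 927 (6.47%) without it. The 95% interval of the difference had a median half-width of 0.219 log2, and for 12980 IDs (90.6%) it lay within 0.5 log2 of no difference on both sides. These intervals were not adjusted for the number of IDs. They rest on the spread shared over all groups, which is smaller than that of the young KO arrays, so they may be too narrow. The power of this test with 3 pools in each group was not computed, so the count of 0 sets no bound on the differences. Without young KO replicate 1 the difference for ENSMUSG00000064365 was 0.73 log2 and was not called (limma adjusted p = 0.758).

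The 714 IDs called in WT hippocampus were used to place each KO array on a scale that the KO arrays had no part in choosing, apart from the filter and the spread. For each array the mean signal of the 541 rises minus that of the 173 falls was taken and set to 0 at the mean of young WT hippocampus. Young KO replicates 1, 2 and 3 stood at 0.10, 0.10 and 0.17 log2, and the old KO arrays at 0.61, 0.54 and 0.61. The old and young KO hippocampus arrays did not overlap on this scale. Young replicate 1, which stands apart over all IDs, lay level with the other young arrays here, since its mean was the lowest of the 3 for the WT rises (9.05 log2, against 9.15 and 9.15) and also for the WT falls (9.77 log2, against 9.86 and 9.80). The WT hippocampus arrays, which chose the IDs, spanned -0.03 to 0.03 when young and 0.61 to 0.66 when old. Cortex stood near or above the level of old hippocampus at both ages. KO cortex was at 0.59 to 0.68 when young and at 0.72 to 0.82 when old, the latter above all old hippocampus arrays. WT cortex was at 0.58 to 0.75 when young and at 0.61 to 0.80 when old. The scale therefore does not mark age alone, and on it the old hippocampus arrays lay nearer to cortex than the young ones did.

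**Figure D5:**
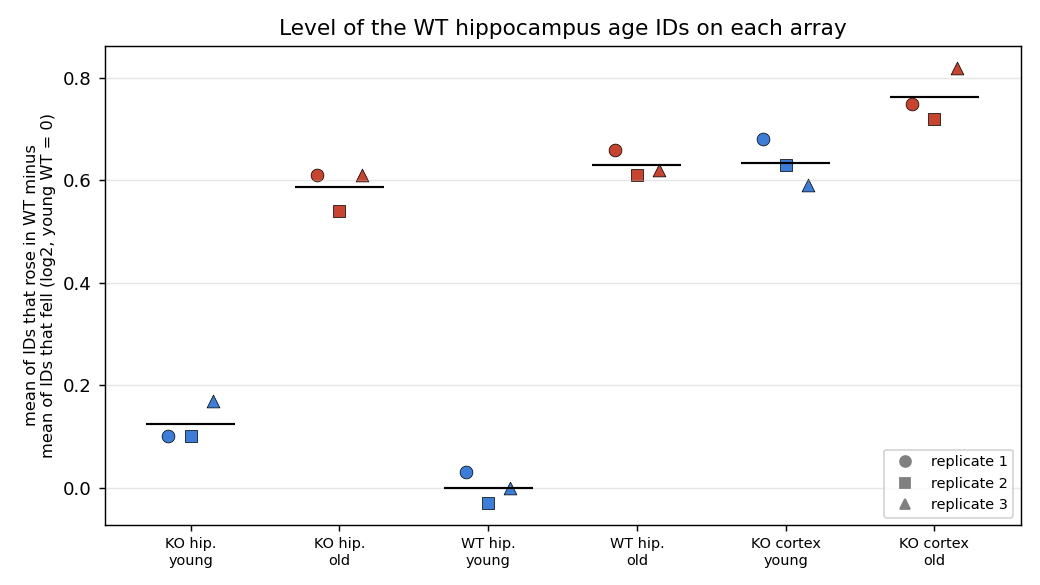
Mean signal of the 541 IDs that rose in WT hippocampus minus that of the 173 that fell, in log2 with young WT hippocampus at 0, on each array, young in blue and old in red, with group means as bars. The young KO hippocampus arrays sit between 0.10 and 0.17 and the old ones between 0.54 and 0.61, with no overlap, and the KO cortex arrays of both ages lie at 0.59 to 0.82.

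The same relation to cortex was seen for the IDs called in KO hippocampus, read on the young WT arrays of both regions, which have no part in the KO comparison other than through the filter and the spread. Of the 592 rises, 459 (77.5%) had a higher signal in young WT cortex than in young WT hippocampus, where 50.4% of all tested IDs did, and the median difference was 0.19 log2. Of the 179 falls, 139 (77.7%) had a lower signal in cortex, where 49.6% of all tested IDs did, with a median of -0.17 log2. In the core it was 117 of 157 rises (74.5%) and 18 of 24 falls (75.0%). Taken across the 14327 IDs (genes are not independent replicates), the KO age change had a correlation of 0.275 with the young WT difference of cortex minus hippocampus, and of 0.261 without young KO replicate 1. ENSMUSG00000064365 was among the IDs of this kind, with 11.56 to 12.20 log2 in young KO cortex and 11.93 to 12.10 in old KO cortex, at the level of old KO hippocampus. The part of tissue composition or dissection in these changes was not tested.

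KO cortex gave the comparison between regions within the same genotype. There 161 IDs rose and 78 fell with age, 1.12% and 0.544% of those tested. Of the 161, 56 (34.8%) also rose in KO hippocampus, where 4.13% of all tested IDs did. Without young KO hippocampus replicate 1, 37 of the 161 rose there, where 1.67% of all tested IDs did. The 56 are 9.46% of the hippocampal rises, beside the 1.12% of all tested IDs that rose in cortex. Of the 78 that fell in cortex, 3 (3.85%) fell in hippocampus, where 1.25% of all tested IDs did. These 3 are 1.68% of the hippocampal falls, beside the 0.544% of all tested IDs that fell in cortex. The hippocampal rises had a median change of 0.09 log2 in cortex and 472 of 592 (79.7%) were positive there, where 58.6% of all tested IDs were. The hippocampal falls had a median of -0.02 log2 in cortex and 99 of 179 (55.3%) were negative, where 41.4% of all tested IDs were. The number called as rising in one region of KO mice and falling in the other was 0. With shares this small over all tested IDs few such IDs would be found, so the 0 is not read further.

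The difference of the age change between KO hippocampus and KO cortex was called for 26 IDs, 0.181% of those tested, with 2157 at an unadjusted p under 0.05. In 17 (0.119%) the change was more positive in hippocampus, by 0.40 to 0.97 log2, and of these 14 rose in hippocampus while 3 fell in cortex. In 9 (0.0628%) it was more negative, by -0.37 to -0.78 log2, of which 4 fell in hippocampus and 5 rose in cortex. In WT mice 15 of the 17 and 9 of the 9 had a region difference of the same sign, where 52.2% and 47.8% of all tested IDs did. The count rested on single arrays, and fits that left out 1 array of these 4 groups or of WT hippocampus called from 1 to 117 IDs. Without old KO hippocampus replicate 1 or replicate 3 it was 1, without young KO hippocampus replicate 1 it was 51 (0.356%) and without young replicate 2 it was 117. Without old KO hippocampus replicate 2 it was 16. Without young KO cortex replicates 1 to 3 it was 8, 2 and 53, and without old KO cortex replicates 1 to 3 it was 1, 2 and 15.

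Calls were found at all levels of signal. When the tested IDs were split into 4 classes of nearly equal size by their mean over the 24 arrays, the rises numbered 112, 162, 153 and 165 from the dimmest to the brightest class, and the falls 15, 27, 58 and 79. Without young KO replicate 1 the rises were 53, 59, 48 and 79 and the falls 19, 62, 96 and 104. The falls were more numerous among the brighter IDs in both fits. The median SD between young KO arrays was 0.126, 0.140, 0.112 and 0.0716 log2 in the same order, and between old KO arrays 0.0954, 0.0859, 0.0732 and 0.0564.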

How the data were processed

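Signals of 23879 Ensembl gene IDs on 24 Affymetrix arrays, 8 groups of 3, were analysed from the table the authors deposited, whose values run from 3.99 to 14.4 with 0 missing. The deposited values are on a log2 scale, as inferred from their range, and MAS5 and RMA were used per the submitters' processing notes, which give neither role nor version. Array model, annotation build and the way probes were joined are not given in the sources used. Detection calls were not used, so folds of dim IDs are uncertain, and the number of arrays limits the precision.

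A filter on the mean of the 24 arrays, at the 40th percentile (6.63 log2), kept 14327 IDs for testing and left out 9552. Group means were fitted to all 24 arrays with limma 3.58.1 in R 4.3.3 (lmFit, eBayes, 16 residual degrees of freedom), and two-sided p-values were adjusted by Benjamini-Hochberg within each comparison. The procedure was tested on simulated data. There each ID had the same spread in all groups, so that test does not cover the wider spread of the young KO hippocampus arrays. The naming rule took the IDs with the largest change among those called with and without young KO replicate 1, with no overlap of old and young arrays; 2 were kept in each direction, because no table names IDs. ENSMUSG00000022548 was chosen after its values were seen. As the IDs could not be matched to gene names, 0 of the 39 gene lists were run. Members, lists and tests were chosen with earlier results of these data known. Replicate numbers were not used to pair arrays in the main fit. Deviations of same-numbered young and old KO hippocampus arrays, which cannot share mice, correlated at 0.294, -0.142 and 0.0581. Between same-numbered KO hippocampus and KO cortex arrays they correlated at 0.0491, 0.29 and 0.154 when young. When old, the values were -0.0817, 0.189 and -0.127. The array titles do not say whether both regions came from the same mice, and the region test treated them as independent. Alternatives covered the filter, scaling, moderation, array weights, the arrays fitted, a replicate block, and each array of hippocampus and of KO cortex left out. No WT cortex array was left out. P-values reflect the spread between pools of mice.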

Additional observations from a re-analysis of the deposited data

Results flagged for a closer look

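A difference between regions was called by a direct test. The age change of 26 IDs differed between hippocampus and cortex of KO mice, 17 being more positive and 9 more negative in hippocampus. Of the 17, 12 were called again without young KO hippocampus replicate 1, and of the 9, 9 were. The count was not stable to other arrays. Fits without 1 array called from 1 to 117 IDs, with 1 called without old KO hippocampus replicate 1 or replicate 3. The median difference was 0.58 log2 for the 17 and -0.51 for the 9, against 0.49 and -0.37 for the same IDs in WT mice, which had no part in the choice other than through the filter and the spread.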

How the results depend on the processing

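The count of 771 called IDs in KO hippocampus ranged from 271 to 899 when 1 hippocampus array was left out, the 592 rises from 239 to 776, the 179 falls from 29 to 281, and the 26 region differences from 1 to 117. Restricting the fit to hippocampus arrays gave 476 calls (376 rises, 100 falls), and to the KO hippocampus arrays 10 (10 and 0). Calls made in all of the 6 fits without 1 KO hippocampus array and with all arrays, a setting added after the data were seen, numbered 181. Quantile normalization gave 498 rises and 413 falls, median centring 334 and 388, and array weights 543 and 394. With young KO replicate 1 also left out, median centring gave 511 calls (183 rises, 328 falls) and quantile normalization 302 rises and 283 falls. Region differences numbered 50 with the filter at the 60th percentile, 49 after quantile normalization, 52 after median centring, 43 with an intensity trend, 120 with array weights, and, with that array left out, 55 after median centring and 48 after quantile normalization. The causes were not tested. With the replicate block 721 IDs were called (541 rises, 180 falls) and 26 region differences. Differences between KO and WT stayed at 0 calls in every alternative run for them. The 4 named IDs kept their direction in every alternative run for each, and 3 of the 4 lost their call in 1, the fit to KO hippocampus arrays alone. No gene list could be run.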
